A study of Mus musculus with 22 samples.

Results

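The 8 mouse Hox genes of paralog groups 5 to 7 are Hoxa5, Hoxb5, Hoxc5, Hoxa6, Hoxb6, Hoxc6, Hoxa7 and Hoxb7. They were picked by gene symbol from the deposited tables and are 8 of 39 Hox genes, the other 31 being used only for comparison, among 55049 genes with a symbol in every table. The data are 22 RNA-seq libraries of poly(A) RNA, from 10 groups of samples. Mouse embryonic stem (mES) cells, wild-type and Hox-/-, were kept untreated in medium with LIF, the GSK-3 inhibitor CHIR99021 (3 µM) and the MEK inhibitor PD0325901 (1 µM) (2 libraries per genotype). Endoderm cultures of both genotypes received 100 ng/ml Activin A with 3 µM CHIR99021 at 24 h and 72 h and were collected at 120 h (3 libraries per genotype). Gastruloids, clumps of stem cells that elongate and pattern much as an early embryo does, were made with Activin A from both genotypes and with Chiron, a short name for CHIR99021, from wild-type cells. Both kinds were sequenced at 96 h and 120 h (2 libraries per group), and the labels give no gastruloid doses. Hox-/- stands for cells said to lack all Hox function. The sample titles call them BADC, which the labels do not spell out. The strain and the number of clones behind each genotype are not given in the sources used here, so genotype and cell line cannot be told apart. The labels give mixed cells for every differentiated culture.

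Hox genes encode transcription factors with a homeodomain and lie in clusters on several chromosomes. Their order along a cluster matches the order in which they become active in the embryo and how far forward along the body axis they reach. Groups 5 to 7 sit in the middle of the clusters and are known for patterning the brachial and thoracic levels of the trunk. Hoxa5 is needed for lung and airway development, Hoxb5 acts in enteric neural crest and foregut mesoderm, and Hoxc6 marks brachial motor neurons. Hoxa7, Hoxb6 and Hoxb7 contribute to the identity of cervical and thoracic vertebrae. Hox proteins bind DNA together with cofactors of the Pbx and Meis families, and Cdx factors, Wnt signals and retinoic acid act upstream of the clusters.

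In the deposited tables (mm10), Hoxa5 (ENSMUSG00000038253) lies at chr6:52201754-52204587, Hoxa6 (ENSMUSG00000043219) at chr6:52206288-52208722 and Hoxa7 (ENSMUSG00000038236) at chr6:52214498-52221854, all on the minus strand. Hoxb7 (ENSMUSG00000038721, chr11:96286623-96290162), Hoxb6 (ENSMUSG00000000690, chr11:96292476-96301569) and Hoxb5 (ENSMUSG00000038700, chr11:96303512-96306120) lie on the plus strand. So do Hoxc6 (ENSMUSG00000001661, chr15:103009573-103011881) and Hoxc5 (ENSMUSG00000022485, chr15:103013815-103017429). RefSeq promoters (GRCm38.p6) matched 3 of the 8 members, the Hoxa genes, which are neighbours and moved apart in the gastruloids described below. Up to 250 bases before each RefSeq start site are shown 5′ to 3′ on the gene's strand, without bases that GENCODE M21 places in an exon. Capitals mark matches to a CCAAT box (read as its reverse complement) or to TTTATG, the motif of Cdx factors. The Hoxa5 stretch is chr6:52204588-52204837, the Hoxa6 stretch chr6:52208723-52208922 and the Hoxa7 stretch chr6:52218712-52218823, all on the minus strand.
Hoxa5: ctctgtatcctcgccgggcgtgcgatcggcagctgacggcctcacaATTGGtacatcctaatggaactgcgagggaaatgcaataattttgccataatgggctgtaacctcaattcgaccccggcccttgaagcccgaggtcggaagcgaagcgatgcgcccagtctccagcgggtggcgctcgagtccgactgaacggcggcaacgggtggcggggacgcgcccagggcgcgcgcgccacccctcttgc
Hoxa6: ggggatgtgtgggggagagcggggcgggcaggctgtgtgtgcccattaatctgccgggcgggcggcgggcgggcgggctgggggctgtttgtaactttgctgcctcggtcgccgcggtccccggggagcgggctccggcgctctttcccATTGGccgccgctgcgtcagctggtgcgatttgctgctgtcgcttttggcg
Hoxa7: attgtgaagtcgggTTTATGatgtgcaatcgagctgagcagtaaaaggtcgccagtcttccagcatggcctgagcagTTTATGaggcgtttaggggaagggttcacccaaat

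The full 250 bases held 28 CpG and 63.6% G or C before Hoxa5, 24 CpG and 65.2% before Hoxa6, and 7 CpG and 54.8% before Hoxa7. The median over 32851 promoters was 6 CpG and 52.4%. In the 3 windows both strands were searched for the CCAAT box, the Cdx motif TTTATG and 3 others. The others were TGATTNAT (Hox with Pbx), the nuclear receptor motif AGGTCA, which retinoic acid receptors bind in repeats, and the TATA box, spelled TATAAA. No motif contains another. TTTATG stood before Hoxa7 alone, at -236 to -231 and -173 to -168 from the RefSeq start site, and 10.8% of all promoters held it. CCAAT stood on the opposite strand before Hoxa5, at -204 to -200, and before Hoxa6, at -101 to -97, and 33.8% of all promoters held it. The Hox with Pbx motif, the nuclear receptor motif and the TATA box, held by 2.82%, 14.0% and 12.4% of promoters, were not among the letters of these windows. The Hoxa5 and Hoxa6 stretches lie inside transcripts of Hoxa3 and of the antisense gene Hoxaas3. The Hoxa7 stretch lies inside the deposited Hoxa7 gene, whose end is upstream of the RefSeq start.

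Libraries held 9.11 to 28.8 M counts, and the 96 h gastruloid libraries (15 to 28.8 M) were deeper than those at 120 h (9.11 to 11.9 M), so time and depth cannot be told apart. A level is given as CPM, counts per M counts of the library, and a gene with at most 3 counts in each library of a group is said to be at the floor there, which lay between 0.104 and 0.329 CPM. Intervals and floors cover counting error only. Nothing in the labels says that replicates came from separate cultures, so p-values measure only the spread between these libraries, which may be technical. The spread between replicates exceeded Poisson error throughout (chi-square over degrees of freedom 1.4 to 11.3) and was widest between the 2 Chiron libraries at 96 h. The labelled cultures were checked against markers: 8 mES markers summed to 6986 to 7390 CPM in mES libraries and at most 1102 CPM elsewhere. The 11 endoderm markers summed to 978 to 994 CPM in wild-type endoderm cultures and 568 to 619 CPM in Hox-/- ones. They summed to 41.2 to 45.6 CPM in wild-type mES cells. In wild-type Activin A gastruloids they reached 890 to 1007 CPM at 96 h and 1025 to 1029 CPM at 120 h. This sum thus does not set endoderm cultures apart from those gastruloids. Wild-type endoderm cultures also held 519 to 587 CPM of 8 caudal progenitor markers, against 23.2 to 28.7 CPM in wild-type mES cells. A gene was called when its adjusted p from edgeR's quasi-likelihood test, with Benjamini-Hochberg adjustment over all genes tested, was under 0.05. Against wild-type mES cells, wild-type endoderm cultures had 10 endoderm markers called higher and 1, Hhex, lower. All 8 caudal progenitor markers were called higher there, against 41.6% of all genes. Contrasts that share libraries, as the 96 h, 120 h and time contrasts do, are not independent of each other.

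Hox-/- libraries held almost no reads of groups 5 to 7. The 8 members together stood at 69.0 to 78.7 CPM in wild-type endoderm cultures and at 0.126 to 0.246 CPM in Hox-/- ones. In Activin A gastruloids the sums were 27.0 and 30.2 CPM against 0.281 and 0.401 CPM at 96 h, and 97.6 and 103 CPM against 0.561 and 0.603 CPM at 120 h. The Hox-/- mean was thus 0.243% ± 0.0816 (SD, n = 3) of the wild-type mean in endoderm cultures, 1.19% ± 0.298 (SD, n = 2) at 96 h and 0.581% ± 0.0298 (SD, n = 2) at 120 h. In mES cells 7 of the 8 members were at the floor in wild type already, and Hoxa7, with 22 and 19 counts against 0 and 0, was the exception. All 8 members were at the floor in Hox-/- mES cells, Hox-/- endoderm cultures and Hox-/- gastruloids at 96 h. At 120 h Hoxc6, with 4 and 3 counts, passed it.

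**Figure D1:**
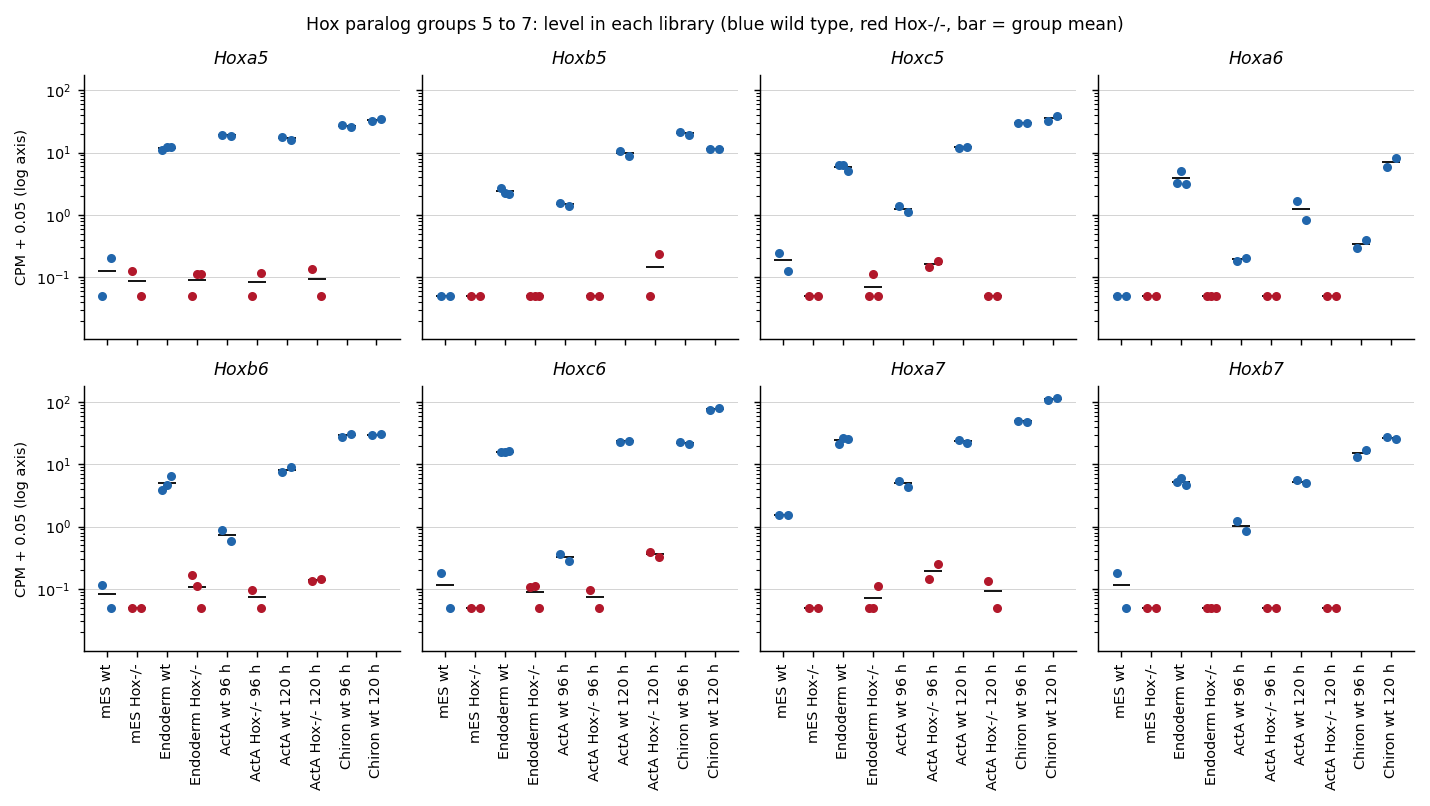
Level of each member in every library, as CPM + 0.05 on a log axis, for the 10 groups; points are libraries (blue wild type, red Hox-/-) and bars are group means, and 0.05 marks a library with no count. Every Hox-/- point lies at or below 0.345 CPM, while wild-type Hoxa7 at 120 h in Chiron gastruloids reaches 115 CPM.

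In endoderm cultures all 8 members were called lower in Hox-/-, against 23.1% of all genes tested. Hoxa7 held 264, 404 and 348 counts in wild type and 0, 0 and 1 in Hox-/-, a ratio of 1226 with a 95% counting interval of 220 to 48491 (exact). Hoxc6 held 191, 238 and 225 counts against 0 to 1, a ratio of 395 (109 to 3266). For both genes the groups did not overlap. Hoxb6, with 47, 70 and 87 counts against 0 to 2, had the smallest ratio of the 5 members with a Hox-/- read (82.1, 27.7 to 401). Where no Hox-/- library held a read the fold is a bound, computed at 3 counts per library. It was at least 28.6-fold lower for Hoxb7, at least 21.1-fold lower for Hoxa6 and at least 12.9-fold lower for Hoxb5. The members passed the filter on low counts through the wild-type libraries, so these calls repeat the genotype label.

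All 8 members were also called lower in Hox-/- gastruloids made with Activin A, where the share of all genes was 16.7% at 96 h and 25.5% at 120 h. Here too the members passed the filter through the wild-type libraries, and the calls repeat the genotype label. Hoxa5 was the member with the most counts at 96 h: 439 and 479 in wild type against 0 and 1, a ratio of 691 (124 to 27304). Hoxa7 held 122 and 112 counts against 2 and 3, a ratio of 35.2 (14.9 to 109). Hoxa6 held 3 and 4 counts against 0 and 0, which lies so near the floor that no fold is given, and Hoxc6 held 7 and 6 against 1 and 0. The call of Hoxa6 (edgeR adjusted p = 0.033) was lost without any of the 4 libraries (0.083 to 0.203). That of Hoxc6 (edgeR adjusted p = 0.015) was lost without wild-type replicate 1 (0.0597), without Hox-/- replicate 2 (0.0968) and with DESeq2 (0.104). At 120 h Hoxc6 held 213 and 217 counts against 4 and 3, a ratio of 74.6 (35.9 to 187), and Hoxc5 109 and 112 against 0 and 0, at least 44.7-fold lower. In mES cells Hoxa7 was the sole member with enough counts to be tested and was called lower (at least 6.17-fold lower), against 10.8% of all genes. DESeq2 gave it no adjusted p.

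Within Hox-/- gastruloids the time contrast called Hoxc6 alone among 8 members as higher at 120 h, against 34.9% of all genes. It rests on 1 and 0 counts at 96 h and 4 and 3 at 120 h, a ratio of 11.4 with a counting interval of 1.47 to 514. The genotype by time contrast was called lower for Hoxa7 and Hoxc5, 2 of 8 members against 20.2% of all genes. Their Hox-/- libraries were at the floor at both times, so the fitted sizes are no measure of a change in Hox-/- cells, and the wild-type rise is given below. The call of Hoxa7 was lost with DESeq2 and without Hox-/- replicate 2 at 96 h (edgeR adjusted p = 0.14) or at 120 h (0.107).

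Wild-type endoderm cultures held more of every member than wild-type mES cells. The wild-type mES sum was 1.71 and 1.99 CPM, most of it Hoxa7. All 8 members were called higher in endoderm cultures, against 41.6% of all genes, in a fit that joined the mES and endoderm count tables. Of these, 7 passed the filter on low counts only through the endoderm libraries, so nothing is read from that count. Hoxa7 rose from 1.46 and 1.48 CPM to 21.4, 26.6 and 25.4 CPM, a ratio of 16.8 (12.3 to 23.6), and it alone started above the floor. Hoxc6 went from 2 and 0 counts to 191, 238 and 225, a ratio of 222 (61.1 to 1834). Hoxa6, at 40, 77 and 43 counts after 0 and 0, was at least 17.7-fold higher, and Hoxb5, at 33, 34 and 29 counts after 0 and 0, at least 10.8-fold higher. Groups 5 to 7 made up 8.65% ± 0.326 (SD, n = 3) of all Hox CPM in wild-type endoderm cultures and 5.6% ± 0.0356 (SD, n = 2) in wild-type mES cells.

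Chiron gastruloids carried the most reads of these genes. The members summed to 193 and 193 CPM at 96 h and to 323 and 343 CPM at 120 h, which was 9.98% ± 0.122 and 15.8% ± 0.196 of all Hox CPM (SD, n = 2 each). Wild-type Activin A gastruloids gave 4.45% ± 0.174 and 8.5% ± 0.199 at the same times. Chiron at 120 h was the highest of the 10 groups for every member except Hoxb5, whose highest group was Chiron at 96 h. For Hoxb6 the Chiron groups at 96 h and 120 h overlapped, and the same held for wild-type endoderm cultures and wild-type Activin A gastruloids at 120 h for Hoxa7 and Hoxb7. The order below that differed between members. Hoxa5 was next highest after both Chiron groups in wild-type Activin A gastruloids at 96 h, above the same gastruloids at 120 h and the endoderm cultures. Hoxa6 was second highest in wild-type endoderm cultures, and Hoxc6 in wild-type Activin A gastruloids at 120 h. For Hoxc6, wild-type Activin A gastruloids at 96 h (0.311 and 0.233 CPM) overlapped Hox-/- ones at 120 h (0.345 and 0.281 CPM).

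At 96 h, 7 of 8 members were called lower in Activin A than in Chiron gastruloids and none higher, against 30.2% of all genes called lower. Hoxa5, the most anterior group member of its cluster here, differed least among those called. It stood at 19.5 and 18.6 CPM with Activin A and 27.6 and 26.0 CPM with Chiron, groups that did not overlap, with a log2 fold change of -0.55 ± 0.0788 (SE). The other group 5 genes lay far apart between treatments. Hoxb5 stood at 1.51 and 1.36 CPM with Activin A and 21.6 and 19.2 CPM with Chiron (log2 -3.88 ± 0.145). Hoxc5 stood at 1.33 and 1.05 CPM against 30.3 and 30.4 CPM (log2 -4.74 ± 0.136). All of these calls had adjusted p-values of 1.93e-06 or less in edgeR's test.

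Among the group 6 genes Hoxc6 gave the widest gap. It held 7 and 6 counts (0.311 and 0.233 CPM) with Activin A and 465 and 620 counts (22.6 and 21.5 CPM) with Chiron, 81.7 times as much per M counts (counting interval 47.6 to 154). Hoxb6 stood at 0.844 and 0.543 CPM against 27.6 and 30.7 CPM, a ratio of 43.1 (30.5 to 62.8). Hoxa6 was low in both, with 3 and 4 counts against 5 and 10, and its difference was not called (log2 -1.09 ± 0.651, edgeR adjusted p = 0.15); the counting interval of its ratio, 0.805 to 6.08, leaves room for a difference in either direction. It was called with limma on log2(FPKM + 0.1) (-1.27, adjusted p = 0.00938). In group 7, Hoxa7 stood at 5.42 and 4.34 CPM against 49.9 and 48.3 CPM, a ratio of 10.1 (8.83 to 11.6). Hoxb7 stood at 1.16 and 0.814 CPM against 13.3 and 17.0 CPM, a ratio of 15.9 (11.8 to 21.8). Activin A gastruloids at 96 h thus held Hoxa5 1.4-fold (1.29 to 1.53) below Chiron gastruloids and 6 other members 10.1-fold to 81.7-fold below them. Hoxa5 was 66.6% ± 2.87 of the members' CPM with Activin A and 13.9% ± 0.63 with Chiron (SD, n = 2 each).

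**Figure D2:**
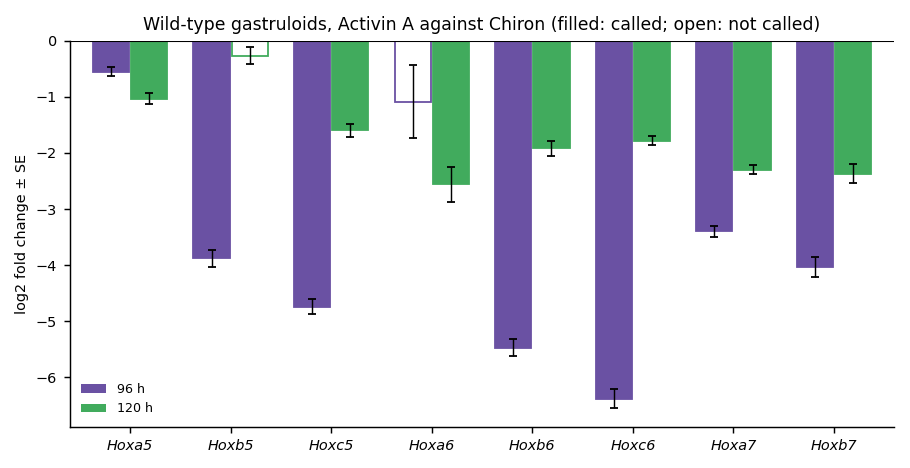
Log2 fold change of Activin A against Chiron in wild-type gastruloids at 96 h and 120 h for each member, with SE bars; filled bars were called and open bars were not. Hoxc6 runs from -6.38 at 96 h to -1.78 at 120 h, Hoxa5 from -0.55 to -1.03, and Hoxb5 is not called at 120 h.

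By 120 h most of these gaps were narrower. Again 7 of 8 members were called lower with Activin A and none higher, against 21.6% of all genes called lower. Hoxb5 was the exception, at 10.7 and 8.78 CPM with Activin A and 11.3 and 11.5 CPM with Chiron; the libraries did not overlap, but the difference was not called (log2 -0.27 ± 0.151, edgeR adjusted p = 0.155), and its counting interval ran from 0.958 to 1.42. It was called in the fits on FPKM. Hoxa5 stood at 17.9 and 16 CPM against 32.5 and 34.6 CPM, a ratio of 1.97 (1.72 to 2.25). Hoxc6 stood at 23.0 and 23.8 CPM against 75.6 and 79.6 CPM, a ratio of 3.3 (2.97 to 3.68), and Hoxc5 at 11.8 and 12.3 CPM against 32.5 and 38.6 CPM. The members with the widest gap were now Hoxa6, Hoxb7 and Hoxa7. Hoxa6 held 15 and 7 counts with Activin A and 69 and 76 with Chiron, a ratio of 5.66 (3.6 to 9.32). Hoxa7 stood at 24.9 and 22.1 CPM against 109 and 115 CPM, a ratio of 4.75 (4.29 to 5.28). Hoxb7 stood at 5.51 and 4.94 CPM against 27.1 and 25.0 CPM, a ratio of 5.0 (4.02 to 6.28), and Hoxb6 at 7.46 and 8.89 CPM against 29.8 and 30.1 CPM.

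Within wild-type Activin A gastruloids the members rose between 96 h and 120 h, with Hoxa5 as the exception. In that contrast 7 of 8 were called higher, against 37.2% of all genes, and 1 lower, against 37.8%. Hoxc6 rose from 0.311 and 0.233 CPM to 23.0 and 23.8 CPM, 87.0 times (50.4 to 165), with a log2 fold change of 6.33 ± 0.23 (SE). Hoxb6, Hoxc5, Hoxa6 and Hoxb5 followed, with log2 fold changes of 3.49 ± 0.261, 3.27 ± 0.208, 2.90 ± 0.593 and 2.69 ± 0.22. The group 7 genes Hoxb7 and Hoxa7 rose by 2.34 ± 0.274 and 2.2 ± 0.135. Hoxa5 went from 19.5 and 18.6 CPM to 17.9 and 16 CPM (log2 -0.24 ± 0.108, edgeR adjusted p = 0.0442). That call was lost with DESeq2 (adjusted p = 0.23), with scaling by total counts alone (adjusted p = 0.17), on FPKM and without Activin A replicate 1 (0.149) or 2 (0.053) at 96 h or replicate 2 at 120 h (0.34), with adjusted p-values of 0.0139 to 0.498 over its alternatives.

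In Chiron gastruloids the change with time was smaller and mixed. The contrast called 5 of 8 members higher at 120 h, against 28.5% of all genes, and 1 lower, against 33.2%. Hoxa6 rose from 5 and 10 counts to 69 and 76, 22.3 times per M counts (13.1 to 40.9). Hoxc6 rose from 22.6 and 21.5 CPM to 75.6 and 79.6 CPM, 3.52 times (3.26 to 3.8), and Hoxa7 from 49.9 and 48.3 CPM to 109 and 115 CPM, 2.28 times (2.15 to 2.41). Hoxb7 rose 1.69 times (1.51 to 1.89). Hoxb5 fell from 21.6 and 19.2 CPM to 11.3 and 11.5 CPM (log2 -0.94 ± 0.117), the sole member called lower. Hoxa5 was called higher at 1.25 times (1.14 to 1.37), a call lost with DESeq2, on FPKM and with no filter. It was also lost without Chiron replicate 1 (adjusted p = 0.0663 in edgeR) or 2 (0.162) at 120 h or replicate 2 at 96 h (0.0684). Hoxc5 (1.16 times, 1.06 to 1.27) and Hoxb6 (1.02 times, 0.925 to 1.12) were not called, with edgeR adjusted p-values of 0.263 and 0.503. The log2 fold changes of that fit were 0.11 ± 0.0865 and -0.07 ± 0.0915. Ratios are scaled by library totals and the fit by TMM, and Hoxb6 differs in direction between them. Scaled by total counts alone, Hoxc5 was called higher (log2 0.22, edgeR adjusted p = 0.0341). Within cluster Hoxa the rise grew from Hoxa5 to Hoxa7 to Hoxa6, and within cluster Hoxb Hoxb5 fell while Hoxb7 rose.

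**Figure D3:**
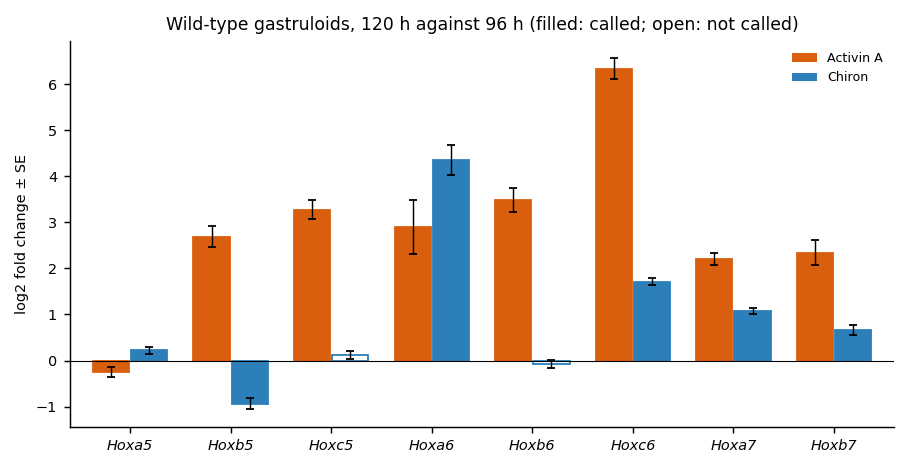
Log2 fold change of 120 h against 96 h in wild-type Activin A and Chiron gastruloids for each member, with SE bars; filled bars were called and open bars were not. Hoxc6 reaches 6.33 with Activin A and 1.71 with Chiron, Hoxb5 goes from 2.69 to -0.94, and Hoxa6 (4.36) and Hoxa5 (0.22) have the larger value in Chiron.

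The difference between these changes with time was tested as a treatment by time contrast. It was called positive, meaning a larger rise with Activin A, for 6 of 8 members, against 21.7% of all genes. It was called negative for 1, against 18.0%. Hoxc6 (4.60 ± 0.241), Hoxb5 (3.61 ± 0.225), Hoxb6 (3.54 ± 0.253) and Hoxc5 (3.14 ± 0.208) had the largest differences on the log2 scale, and Hoxb7 (1.66 ± 0.291) and Hoxa7 (1.10 ± 0.138) smaller ones. Hoxa5 differed the other way (-0.48 ± 0.13, edgeR adjusted p = 0.00544), a call lost without replicate 2 of the wild-type Activin A group at 120 h (adjusted p = 0.0628) and with limma on log2(FPKM + 1) (adjusted p = 0.0532). For Hoxa6 the contrast was not called (-1.47 ± 0.836, edgeR adjusted p = 0.173).

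Markers of several tissues moved with the same contrasts, and their part in the results for groups 5 to 7 was not tested. Of 9 presomitic and somitic mesoderm markers, 9 were called lower with Activin A at 96 h and 8 at 120 h. Their summed level was 168 to 180 CPM with Activin A and 883 to 1019 CPM with Chiron at 96 h, and 485 to 491 CPM against 953 to 995 CPM at 120 h, with no marker at the floor in these 4 groups. Of 11 endoderm markers, 10 were higher with Activin A at 96 h and 11 at 120 h, with sums of 890 to 1007 CPM against 210 to 237 CPM and of 1025 to 1029 CPM against 98.9 to 99.5 CPM. None of these was at the floor. The neural list (8 genes) summed to 47.7 to 51.4 CPM at 96 h and 105 to 106 CPM at 120 h with Activin A, where Olig2 and Neurog2 were at the floor at 96 h. The caudal progenitor list (8 genes) shares Cdx2, Fgf8, Wnt3a and Cyp26a1 with the upstream factors described below, so these results are not separate. It summed to 3216 to 3347 CPM with Activin A and 1644 to 1913 CPM with Chiron at 96 h. At 120 h the sums were 680 to 689 CPM and 613 to 669 CPM. With Activin A 5 were called higher and 3 lower at 96 h, and 4 higher and 4 lower at 120 h. With time in wild-type Activin A gastruloids 7 were called lower and 1 higher, in the contrast where 7 members rose. The presomitic and somitic list had 6 of 9 called higher and 3 lower there. In Hox-/- gastruloids at 120 h, 8 of 9 presomitic and somitic markers were higher than in wild type and none lower, and 7 of 8 neural markers were lower and 1 higher. Between genotypes the endoderm list had 10 of 11 members called lower at 96 h and 9 at 120 h in Hox-/- gastruloids. Of all genes, 30.2% were called lower with Activin A at 96 h and 21.6% at 120 h. With time in wild-type Activin A gastruloids 37.2% were called higher and 37.8% lower. In Hox-/- gastruloids 16.7% were called lower than in wild type at 96 h and 25.5% at 120 h. In these bulk samples fewer cells of a type and less RNA per cell cannot be told apart.

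Levels of different genes were put in order only on the authors' FPKM, which is scaled by transcript length, and only for 6 members. The shares of CPM given above are not scaled by length and depend on it. Exon length ran from 0.87 kb for Hoxa6 to 2.92 kb for Hoxc5. In Chiron gastruloids at 120 h Hoxc6 stood at 41.5 and 42.4 FPKM, Hoxb6 at 19.3 and 19.2 FPKM and Hoxa5 at 16.1 and 16.5 FPKM. Hoxc5 (9.35 and 11.1 FPKM), Hoxb5 (7.54 and 7.29 FPKM) and Hoxa6 (4.88 and 5.86 FPKM) were lower, and none of these neighbours in the order overlapped between libraries. In Activin A gastruloids at 96 h the order was different, with Hoxa5 at 10.4 and 9.78 FPKM and the 5 others at 0.819 FPKM or less. Hoxc6, the highest of the 6 in Chiron gastruloids at 120 h, was then at 0.172 and 0.124 FPKM. Hoxa6 was at 0.229 and 0.248 FPKM but held only 3 and 4 counts against 7 and 6 of Hoxc6, so the order of these 2 is not given. In wild-type endoderm cultures Hoxc6 (8.5, 8.53 and 9.28 FPKM) stood above Hoxa5 (5.77, 6.38 and 6.73 FPKM).

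Hoxa7 and Hoxb7 were left out of that order because their FPKM and counts disagree. For Hoxb7 the authors' FPKM per CPM had a median of 2.574 and a range of 1.037 to 5.062 over libraries with at least 20 counts, 3.97 times what its exon length of 1.54 kb would give. The ratio followed the groups. Hoxb7 stood at 5.51 and 4.94 CPM but 27.2 and 25.0 FPKM in wild-type Activin A gastruloids at 120 h, and at 1.16 and 0.814 CPM and 1.26 and 0.844 FPKM at 96 h. Its rise there was thus 2.34 on the log2 scale by counts and 4.53 by limma on log2(FPKM + 0.1). For Hoxa7 the FPKM was listed at 0 in both wild-type Activin A libraries at 96 h, which held 122 and 112 counts. The FPKM-based genotype difference of Hoxa7 at 96 h, 0.13 with a pseudocount of 1 and 0.85 with 0.1, therefore had the opposite sign to the counts, and neither value was called (limma adjusted p = 0.488 and 0.213). The other 6 members had medians between 0.68 and 1.3 times the ratio expected from their exon length, over libraries with at least 20 counts. For Hoxa6 only 5 libraries reached that count. It stood at 0.243 and 0.347 CPM but 0.631 and 0.808 FPKM in Chiron gastruloids at 96 h, on 5 and 10 counts. In Chiron gastruloids at 120 h it stood at 5.78 and 8.06 CPM and 4.88 and 5.86 FPKM. Its FPKM per CPM thus also differed between groups, and its place in the order above is uncertain.

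**Figure D4:**
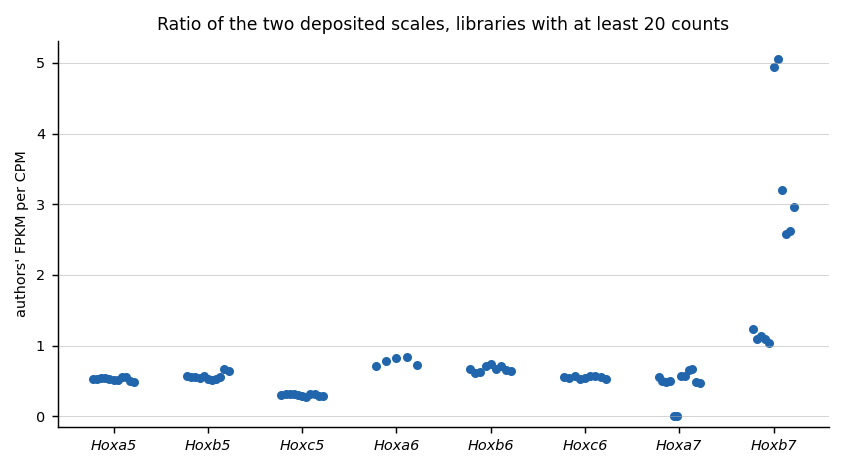
The authors' FPKM divided by CPM for each member, 1 point per library with at least 20 counts of that gene. Hoxb7 spreads from 1.037 to 5.062 and Hoxa7 has 2 points at 0, while the other members stay within a narrow band.

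Other annotated genes overlap 6 of the 8 members, and it is not given in the sources used here whether the counting used strand, so these counts are uncertain. Hoxaas3, an antisense transcript of the Hoxa cluster, covers all of Hoxa5 and Hoxa6 and 579 bases of Hoxa7. It stood at 6.58 CPM in wild-type Activin A gastruloids at 96 h and 75.9 CPM at 120 h, while Hoxa5 stayed at 19 and 17.0 CPM, the means of its 2 libraries. Hoxb5os, antisense to Hoxb5 and Hoxb6, stood at 0.119 and 39.4 CPM in the same groups and at 57.1 and 112 CPM in Chiron gastruloids at 96 h and 120 h, where Hoxb5 went from 20.4 to 11.4 CPM. Hoxa3 spans Hoxa5 and Hoxa6 on the same strand, at 27.5 and 38.2 CPM in the Activin A groups. Mir615 lies inside Hoxc5 and reached at most 23 counts in a library. The part of these overlaps in the counts of the members was not tested.

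The other Hox genes are given beside the members as a description, and no test of the members against them was made. In wild-type Activin A gastruloids 21 of 27 other Hox genes tested rose with time, with a median log2 fold change of 3.61, against 2.80 for the members and 0.00 for all genes. With time in Chiron gastruloids 12 of 26 rose and 10 fell (median 0.08, members 0.44). Of all genes, 37.2% rose with time with Activin A, and with Chiron 28.5% rose and 33.2% fell. With Activin A, the neighbours on the anterior side in group 4 ranged from Hoxa4, not called (0.18), to Hoxd4 (4.89), and those on the posterior side in group 8 were Hoxd8 (3.61), Hoxb8 (4.15) and Hoxc8 (6.43). At 96 h, 21 of 26 other Hox genes were lower with Activin A and none higher (median -3.26, members -3.96), with Hoxc8 at -7.70 and Hoxb8 at -5.67. At 120 h, 18 were lower and 3 higher, namely Hoxc11, Hoxd1 and Hoxd11, with a median of -0.66 against -1.85 for the members. The share of all genes called lower with Activin A was 30.2% at 96 h and 21.6% at 120 h. Between genotypes most other Hox genes were lower in Hox-/-, as the members were. In endoderm cultures 29 of 30 tested were called lower (median -9.33, members -8.25), against 23.1% of all genes. In Activin A gastruloids 18 of 27 were called lower at 96 h (median -4.4, members -4.63), against 16.7% of all genes. At 120 h 25 of 27 were called lower (median -7.56, members -7.69), against 25.5%. Hoxa13 and Hoxd13 were higher in Hox-/- Activin A gastruloids at both times, and no member was called higher between genotypes.

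**Figure D5:**
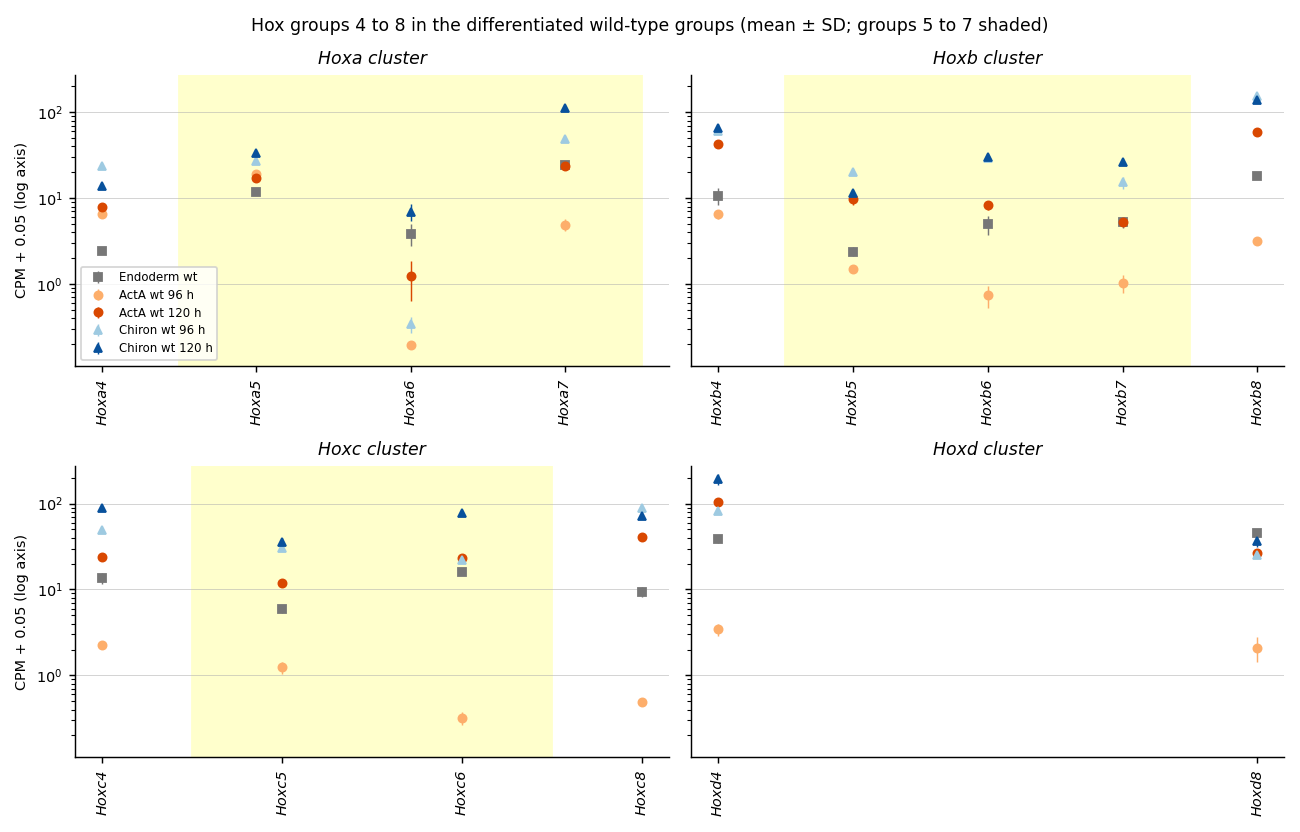
Mean CPM + 0.05 with SD on a log axis for the members and the Hox genes of groups 4 and 8 in cluster order, in 5 wild-type groups of samples; paralog groups 5 to 7 are shaded, and levels are to be read between sample groups for each gene, since CPM is not scaled by gene length. The points of Activin A at 96 h lie near the others at Hoxa5 (19 CPM) and well below them at Hoxc6 (0.272 CPM) and Hoxb6 (0.693 CPM).

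Hox cofactors and upstream factors were described from lists of 9 and 11 genes. At 96 h, 3 cofactors were higher and 5 lower with Activin A than with Chiron (median -0.26), with Meis1 lowest (log2 -4.24 ± 0.174), Pknox2 at -1.08 ± 0.0625, Pbx3 at 0.98 ± 0.0627 and Meis3 at 0.77 ± 0.0663. Of the upstream factors 1 was higher and 9 lower, beside 30.2% of all genes called lower. Cdx4, a trunk Cdx factor, stood at 1.89 CPM with Activin A and 109 CPM with Chiron (log2 -5.92 ± 0.111), Gdf11 at 7.31 and 49.8 CPM (-2.82 ± 0.0857), Aldh1a2, a retinoic acid synthesis enzyme, at 54.9 and 354 CPM (-2.75 ± 0.0927), and Rarg, a retinoic acid receptor, at -1.31 ± 0.0548. Between 96 h and 120 h in wild-type Activin A gastruloids, while 7 members rose, Cdx1 (-4.10 ± 0.0838), Fgf8 (-1.96 ± 0.0511), Wnt3a (-3.18 ± 0.0912) and Cdx2 (-1.52 ± 0.0478) fell. In that contrast 6 upstream factors rose and 5 fell. Those that rose most were Rarb (4.52 ± 0.159), Gdf11 (2.41 ± 0.0974) and Aldh1a2 (1.07 ± 0.0546). Smaller rises were those of Cdx4 (0.82 ± 0.261), Rara (0.73 ± 0.0628) and Cyp26a1 (0.32 ± 0.0541). Of the cofactors 4 rose and 2 fell, with Meis1 at 5.44 ± 0.116 and Meis2 at 0.93 ± 0.0429. In Hox-/- endoderm cultures, which lack the members, 6 of 10 upstream factors tested were higher and 3 lower, with Cdx4 at 2.39 ± 0.122, Cdx2 at 1.08 ± 0.0633, Cyp26a1, which breaks down retinoic acid, at -0.87 ± 0.0589 and Rarg at 0.76 ± 0.0601. There 4 cofactors were higher and 2 lower, led by Pknox2 (1.01 ± 0.0714) and Meis2 (1.00 ± 0.0745). Of all genes, 23.1% were called lower in that contrast. Shares of all genes called higher are not given here for the treatment and genotype contrasts, so list counts called higher in them are only described.

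Likeness of pattern was measured as Pearson's r of log2(CPM + 1) over the 13 wild-type libraries, as a description, since libraries of a group may share a culture. Among the members r ran from 0.316 between Hoxb5 and Hoxa6 to 0.991 between Hoxc5 and Hoxb6. Hoxa7 and Hoxb7 were each other's closest Hox gene (0.99). The Hox gene closest to Hoxa5 was Hoxa3 (0.989), which overlaps it, and its highest r with another member was 0.801, with Hoxa7. Hoxc5 was closest to Hoxb8 (0.992), Hoxb5 to Hoxb8 (0.97), Hoxb6 to Hoxc5 (0.991) and Hoxc6 to Hoxc9 (0.984). Hoxa6 stood apart, closest to Hoxc10 (0.923), which was at 0.00 CPM with Activin A and 0.372 CPM with Chiron at 96 h. Outside the Hox genes, the 5 closest to the mean of the members among 12971 candidates were Gdf11 (0.99), Zfp862-ps (0.99), Slc39a6 (0.986), Mprip (0.985) and S1pr3 (0.983). Gdf11, a secreted signal of the trunk to tail transition, went from 7.31 CPM at 96 h to 41 CPM at 120 h with Activin A and from 49.8 to 104 CPM with Chiron. Over all 22 libraries, Hox-/- included, its r was 0.576, and the closest genes were the overlapping antisense transcripts Hoxaas3 (0.986) and Hoxb5os (0.976). Hoxd3os1 (0.954) and Haglr (0.952) followed, on chromosome 2, which holds no member. Each of these stood at 0.356 CPM or less in every Hox-/- group, so r over all libraries partly repeats the genotype label.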

How the data were processed

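Gene counts of 22 RNA-seq libraries were used. Per the labels, a stranded kit was used on poly(A) RNA. The submitters' processing notes name cutadapt 1.16, STAR, Cufflinks 2.2.1 and the mm10 build, and the counting tool and its strand setting are not given in the sources used here. The deposited count tables hold whole, unnormalized counts per Ensembl gene, and the deposited FPKM tables hold fragments per kilobase and M fragments, per the file headers.

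The 8 genes were found by symbol. The members, gene lists and alternatives were chosen with earlier results of these data known. Whole count tables went into edgeR 4.0.16, run in R 4.3.3 (filterByExpr, TMM, one coefficient per group, quasi-likelihood test), in 12 contrasts. Each table had its own fit, and the mES and endoderm tables were joined by gene ID for the contrast between them. CPM is count over library total, given as mean ± SD; intervals of ratios are exact (Clopper-Pearson, 95%). Libraries held 9.11 to 28.8 M counts. The named genes are all 8 members, Hox genes of groups 4 and 8 or called against the majority, overlapping genes, the closest genes in pattern among those with at least 5 CPM, and of 9 cofactors and 11 upstream factors up to 4 with the smallest p. The upstream factors that rose with time in wild-type Activin A gastruloids are named as well.

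Alternatives were RLE factors, DESeq2 1.42.0, no filter, a minimum of 10 counts in each library, a replicate block, limma 3.58.1 on log2(FPKM + 1) and log2(FPKM + 0.1), only the 2 groups compared, and each library left out. Scaling by total counts alone was added after seeing the data. The statistics were tested on simulated data.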

Additional observations from a re-analysis of the deposited data

Results flagged for a closer look

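The change with time differed between wild-type Activin A and Chiron gastruloids for 7 members, by the tested treatment by time contrast, 6 positive against 21.7% of all genes and 1 negative against 18.0%. On the log2 scale the differences were 4.60 for Hoxc6, 3.61 for Hoxb5, 3.54 for Hoxb6, 3.14 for Hoxc5, 1.66 for Hoxb7, 1.10 for Hoxa7 and -0.48 for Hoxa5. The call of Hoxa5 was lost without replicate 2 of the wild-type Activin A group at 120 h (edgeR adjusted p = 0.0628) and with limma on log2(FPKM + 1) (adjusted p = 0.0532). Hoxb5 rose with Activin A and fell with Chiron.

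The genotype difference in Activin A gastruloids differed between 96 h and 120 h for Hoxc5 (-7.19) and Hoxa7 (-3.68), by the tested genotype by time contrast. These 2 of 8 members stand beside 20.2% of all genes called lower, a share near theirs, so this is no result about the members as a group. The call of Hoxa7 was lost with DESeq2 (adjusted p = 0.0587) and in edgeR without Hox-/- replicate 2 at 96 h (0.14) or at 120 h (0.107). The Hox-/- libraries of both genes held 3 counts or fewer at both times, so these fitted sizes depend on how zeros are handled and are no bound.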

How the results depend on the processing

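Of 1120 values of the members under the alternatives, 1062 kept their direction and their side of the threshold, 33 lost the call, 12 gained it and 13 changed sign. The replicate numbers did not pair the samples (correlations of deviations from -0.07 to 0.106), and the replicate block changed 0 of 89 member tests and left, for example, 7 of 8 members called at 96 h between treatments. For members called in Hox-/- Activin A gastruloids at 96 h, 4 were called on log2(FPKM + 1) and 5 on log2(FPKM + 0.1), 6 to 7 with single libraries left out. For genotype by time, DESeq2 called 1, log2(FPKM + 1) 7, log2(FPKM + 0.1) 6, and leaving out a library 1 to 2. In mES cells DESeq2 gave Hoxa7, the member tested, no adjusted p. For time in Hox-/- gastruloids log2(FPKM + 1) called 0 and leaving out libraries gave 1 to 2. In that contrast Hoxa5 ran from -2.23 to 2.76 with single libraries left out, changing sign without replicate 1 at 96 h (-0.52) and at 120 h.

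In genotype by time, Hoxb5 changed sign on log2(FPKM + 1) (-1.69), on log2(FPKM + 0.1) (-2.04) and without Hox-/- replicate 2 at 120 h (-2.69). With single libraries left out, Hoxa5 ran from -1.99 to 3.00 (-0.28 without Hox-/- replicate 1 at 96 h, -1.99 without replicate 1 at 120 h) and Hoxb6 from -2.66 to 0.09. Hoxa7 at 96 h between genotypes was 0.13 and 0.85 on FPKM. With time in Chiron gastruloids, Hoxb6, at -0.07 in the main fit, was 0.03 with total counts alone and 0.04 without replicate 2 at 96 h. Hoxc5, at 0.11 in the main fit, ran from -0.01 to 0.22 with single libraries left out. The cause of these changes was not tested.

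The members' Hox-/- sum at 120 h was 0.474% of wild type on FPKM and 0.627% on TMM-scaled totals. Over all genes, calls in mES cells fell from 3168 to 1094 with DESeq2, 272 on log2(FPKM + 1) and 372 on log2(FPKM + 0.1), and ranged from 1477 to 3372 with single libraries left out. At 96 h between genotypes they fell from 6546 to 3418, 2943 and 2787 in the same order. Genotype by time fell from 6544 to 4359 with DESeq2 and 4264 on log2(FPKM + 0.1), and treatment at 96 h from 10655 to 6670 on log2(FPKM + 0.1). Total counts alone moved the median of all genes by -0.11 between genotypes at 120 h and 0.12 between endoderm and mES cells. A filter of at least 10 counts in every library left no member in the genotype, Activin A time and endoderm against mES contrasts. FPKM was not fitted across the mES and endoderm tables.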
